A study of Mus musculus with 7 samples.

Results

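The elastic fibre, fibulin and crosslinking genes examined here are 10 matrix genes: Fbn1, Fbln1, Fbln2, Eln, Lox, Loxl1, Loxl2, Fn1, Postn and Sparc. JUNB is one of the proteins that form the AP-1 transcription factor, and its sites were mapped by CUT&RUN, in which an antibody directs a nuclease to a DNA-bound protein so that released fragments mark where the protein sat. A region is a stretch of overlapping JUNB peaks from any of the 4 peak lists, and it was given to the protein-coding gene whose start or end, whichever was closer, was the nearest gene end within 100 kb of the region's median summit. By this rule 14 of 12655 regions and 10 of 21900 genes belonged to the set.

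All libraries came from iMGT-Myh6-eGFP-MEF, a mouse embryonic fibroblast line in which doxycycline (1 μg/mL) switches on MGT, a set of 3 cardiac transcription factors (Mef2c, Gata4 and Tbx5), and which carries a Myh6-eGFP reporter. Cells received a control siRNA (siControl, 2 JUNB libraries) or an siRNA against Chst7, a chondroitin sulfotransferase (siChst7, 2 JUNB libraries), by their titles, and were harvested at day 1 after MGT induction, so that the controls were reprogramming cells too. The labels' treatment protocol, in contrast, lists siJunb, siH1f0 and siControl but no siChst7. The treatment labels and the peak names say siChst7, as the titles do. If siJunb had been used, the protein being mapped would itself have been depleted. The 3 IgG libraries (1 siControl and 2 siChst7) were not analysed here, no expression values were at hand, and all libraries share 1 cell line. The titles call the libraries biological replicates, and the labels do not say further how the replicates were made.

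Elastic fibres are built from a core of crosslinked elastin on a scaffold of fibrillin microfibrils, with fibulins helping to join the parts. Lysyl oxidases secreted by fibroblasts crosslink elastin and collagen and so stiffen the matrix. Fibronectin, periostin and SPARC are matrix glycoproteins that bind cells, collagen or both and are abundant in activated fibroblasts.

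JUNB regions were found at 8 of the 10 genes, and a region of Fbln2 stood far above the others. Of the 10 genes, 3 (Fbn1, Fbln2 and Loxl1) owned a region that all 4 lists shared, against 8.32% of all protein-coding genes. A region in any list was found for 8 of 10, against 25.1% of genes. These genes also had more genome nearest to them than most, a median of 126 kb against 46.4 kb over all genes. Per 100 kb of such genome they held 1.12 regions, against 0.649 for all genes, and 0.320 regions shared by all lists, against 0.142. Much of this came from Fbln2, which held 4 of the 14 regions and 2 of the 4 shared ones. It did so on 125 of the 1252 kb, a rate of 3.21 regions per 100 kb. The median number of regions per gene was 1, against 0 over all genes. Eln and Fbln1 owned none. The lists held 4735 to 10163 peaks, and read depth per library is unknown here.

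**Figure D1:**
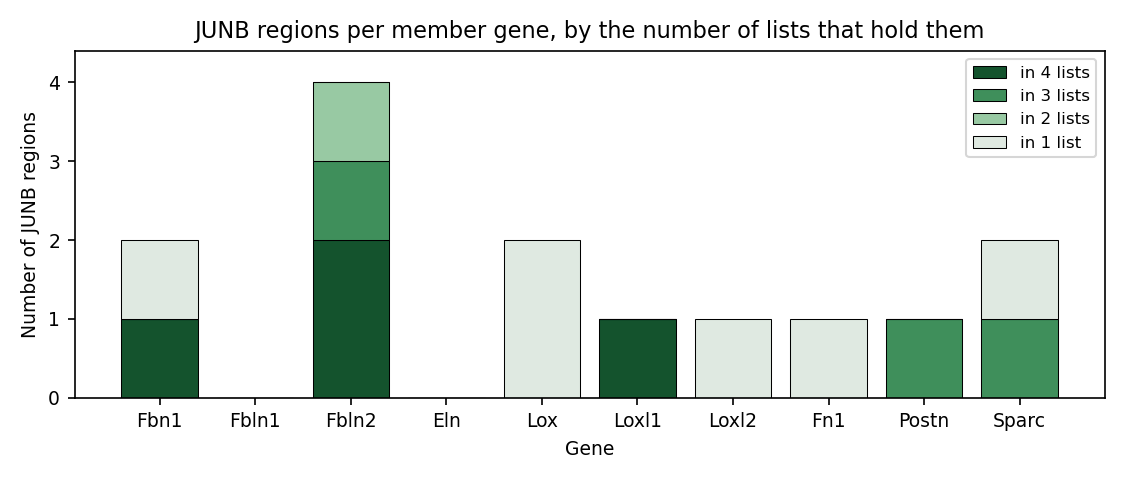
Number of JUNB regions (vertical axis) owned by each of the 10 genes (horizontal axis), with bar segments for regions present in 4, 3, 2 or 1 of the peak lists. Fbln2 has 4 regions, Eln and Fbln1 have none, and Lox, Loxl2 and Fn1 have regions of a single list.

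Of the fibulin genes, Fbln2 owned the most regions of the set, while Fbln1, like Eln, owned none. Fbln2 encodes fibulin-2, a glycoprotein of basement membranes and elastic fibres, and owned 4 regions, a count that 3.21% of all genes reached. Of these, 2 were in all lists, and 1.87% of genes had 2 or more such regions. These counts depended on how peaks were joined: there were 7 Fbln2 regions with 50% reciprocal overlap, 6 with summit windows of 100 bp to each side and 2 within 5 kb of the gene body. The region at 6.1 kb was not shared by all lists with 50% reciprocal overlap or summit windows, which left 1 shared Fbln2 region. Its strongest region lay 9.9 kb from the 5 prime end of the gene (chromosome 6, 91201878 to 91203255, mm10), outside any protein-coding gene. Its fold enrichment, which is the authors' value for a peak over local background, was 31.4 and 30.4 in siControl replicates 1 and 2. In siChst7 replicates 1 and 2 the folds were 34.1 and 36.6. Each of these peaks was above the 99.6th percentile of folds in its own list, where medians were 6.61 to 6.80. By q-value it was peak 35 of 6469, 30 of 5827, 44 of 10163 and 13 of 4735, in the same order. The 4 summits fell within 99 bp of each other. No other peak of the 10 genes had a fold above 11.2.

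Of the other 3 Fbln2 regions, 2 lay between this region and the gene and 1 at the gene's start, just inside it. A region 6.1 kb from the 5 prime end (chromosome 6, 91205602 to 91208004) was in all 4 lists, with highest folds of 7.70 and 6.32 in siControl and 10.4 and 8.67 in siChst7, in replicate order. It covered 2403 bp, more than any other region of the set, because siChst7 replicate 1 had 1 broad peak where each of the other lists had 2 peaks. A region 1.6 kb out (chromosome 6, 91210462 to 91211247) had folds of 4.79 and 7.61 in siControl and 9.66 in siChst7 replicate 1, and was missing from the list of siChst7 replicate 2. The nearest region, at the gene start (chromosome 6, 91212498 to 91212835), was listed in siControl replicate 1, with a fold of 7.06, and siChst7 replicate 1, with 5.19. Next upstream, 19.6 kb from Fbln2, a region in all 4 lists went to Hdac11, with folds of 6.31 to 9.39.

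**Figure D2:**
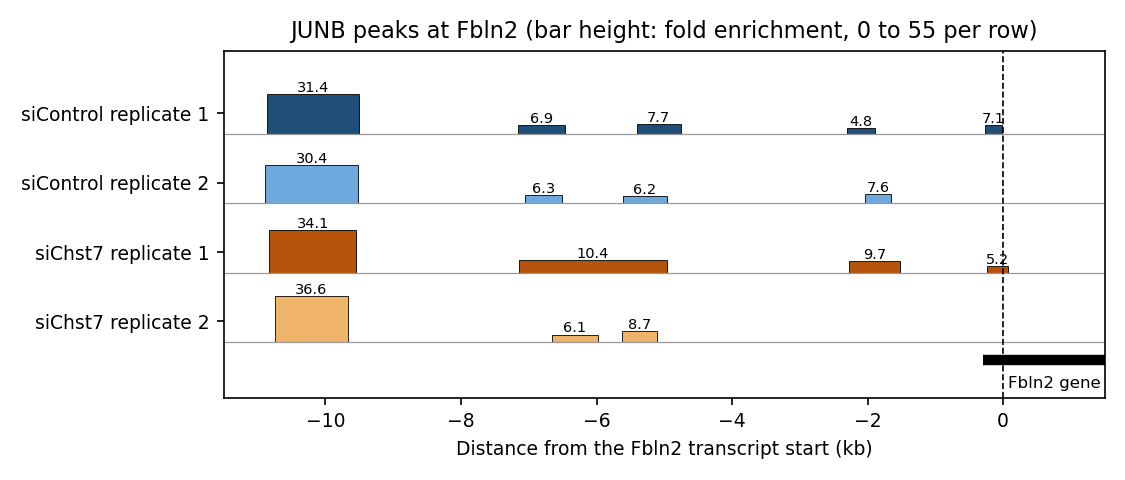
JUNB peaks of each library (rows) against the distance in kb from the Fbln2 transcript start (horizontal axis, dashed line at 0), each drawn from its start to its end with a height set by its fold enrichment, which is printed above it. The tall peak near 10 kb upstream is in every row with folds of 30.4 to 36.6. The peak at the gene start is missing from replicate 2 of both groups, and the next peak upstream from siChst7 replicate 2 alone.

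The region at the Fbln2 start spanned the promoter window that RefSeq gives for the gene (GRCm38.p6, chr6:91212514-91212813, plus strand, 250 bases before to 50 after the transcript start). It is shown because, of the promoter windows that the RefSeq table holds for the 10 genes, it was the one that a peak overlapped. Capitals mark the 67 bases from the summit of siChst7 replicate 1 to that of siControl replicate 1, and the median summit lay 106 bases before the transcript start.
Fbln2 promoter: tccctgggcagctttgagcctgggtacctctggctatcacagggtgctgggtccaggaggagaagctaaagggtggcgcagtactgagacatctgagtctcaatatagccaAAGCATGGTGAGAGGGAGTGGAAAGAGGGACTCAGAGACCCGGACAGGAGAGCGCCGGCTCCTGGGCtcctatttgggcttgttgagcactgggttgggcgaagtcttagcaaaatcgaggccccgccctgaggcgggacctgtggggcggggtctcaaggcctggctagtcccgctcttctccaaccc
The core AP-1 motif TGANTCA, which reads the same on both strands, does not occur in these 300 bases. The table holds 7 promoter windows for 5 of the 10 genes (Fbn1, Fbln1, Fbln2, Postn and Sparc), and 0 of the 7 hold the motif, against 7.81% of all 32851 windows. The windows of Fbln1 overlap each other. This says that the letters are absent from those windows, not that JUNB does not bind there.

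Fbln1, the gene of fibulin-1, a partner of fibronectin and elastin (chromosome 15, 85205949 to 85286294), owned no region in any list, although 136 kb of genome lay nearest to its ends. The closest JUNB region, 47.4 kb away, belonged to Atxn10, was in the list of siChst7 replicate 1 alone and had a fold of 4.04. The closest region present in all 4 lists lay 61 kb from Fbln1, also belonged to Atxn10 and had folds of 5.93 to 8.17.

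Of the 2 genes for the fibre itself, Fbn1 owned JUNB regions and Eln did not. Fbn1 encodes fibrillin-1, the main subunit of microfibrils. Its shared region lay inside the gene, 1.9 kb from the 3 prime end (chromosome 2, 125302279 to 125302817), while the transcript start is at the other end of this 206 kb gene. The folds were 6.95 and 7.73 in siControl and 8.76 and 7.77 in siChst7, in replicate order, and the 4 summits fell within 61 bp. These peaks stood between the 52.1 and 74.3 percentiles of their lists. A second Fbn1 region, 6.7 kb beyond the 3 prime end (chromosome 2, 125293824 to 125294022), was in siControl replicate 1 alone, with a fold of 6.44. Eln, which encodes tropoelastin (chromosome 5, 134702595 to 134747368), owned none. The region closest to Eln, 13.7 kb away, belonged to Limk1, was in siControl replicate 1 alone and had a fold of 5.56.

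Among the crosslinking enzymes, Loxl1 was the gene with a region in every list. LOXL1 is the lysyl oxidase most closely tied to elastin, and its region lay inside the gene, 11.9 kb from the nearer end (chromosome 9, 58299360 to 58299794). The folds were 8.20 and 5.65 in siControl and 10.2 and 7.34 in siChst7, so that the groups overlapped. The next region toward Stoml1, in all 4 lists with folds of 10.4 to 14.7, lay 12677 bp from Loxl1 and 12522 bp from Stoml1 and went to Stoml1 by that margin. Lox, the founding lysyl oxidase, owned 2 regions outside the gene, 5.7 and 29.1 kb from its nearer end (chromosome 18, 52535543 to 52535860 and 52558809 to 52559399). Both were listed in siChst7 replicate 1 alone, with folds of 5.66 and 8.08. Loxl2, which crosslinks collagens including those of basement membranes, owned 1 region inside the gene, 38.7 kb from the nearer end (chromosome 14, 69657097 to 69657468). It was again in siChst7 replicate 1 alone, and its fold of 4.04 stood at the 2.24 percentile of that list.

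The 3 genes of cell-binding and matricellular glycoproteins owned 4 regions, none of which was in all lists. Fn1, the fibronectin gene, had 1 region at an end of the gene, 0.3 kb inside it (chromosome 1, 71652985 to 71653197), in siControl replicate 1 alone with a fold of 5.15. Postn encodes periostin, a protein of activated fibroblasts, and its region lay 89.3 kb beyond the 3 prime end (chromosome 3, 54480011 to 54480960). It had folds of 5.92 and 6.59 in siControl and 11.2 in siChst7 replicate 1, and was missing from siChst7 replicate 2. This was the region of the set closest to the 100 kb limit from within, and a region 102.7 kb from Fn1 with a fold of 6.61 in siChst7 replicate 1 was the closest beyond it. Sparc encodes a collagen-binding protein, also called osteonectin. One Sparc region lay inside the gene, 2.1 kb from the 5 prime end (chromosome 11, 55417571 to 55418223), with folds of 4.22 in siControl replicate 1 and 8.65 and 6.31 in siChst7. Another, 8.1 kb upstream (chromosome 11, 55427976 to 55428179), was in siChst7 replicate 1 alone, with a fold of 4.09.

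**Figure D3:**
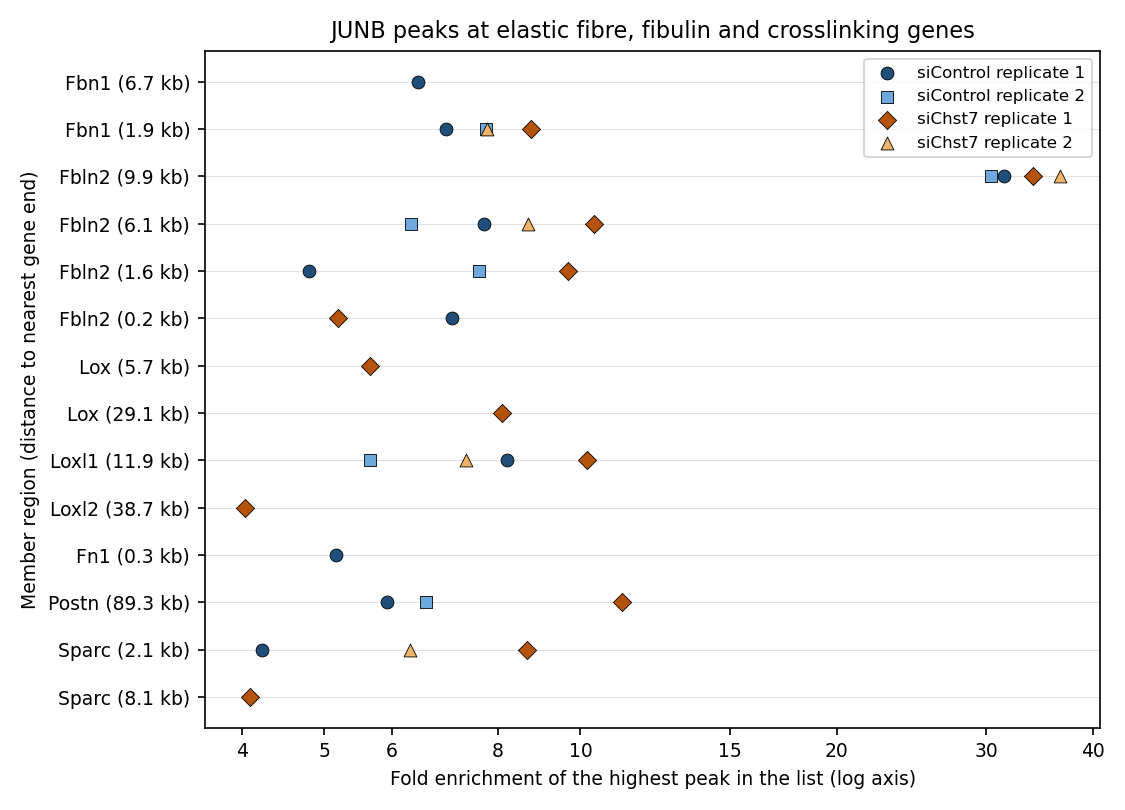
Fold enrichment (log axis) of the highest peak of each of the 14 regions (rows, named by gene and distance to the nearest gene end) in each library that listed it (symbols). The Fbln2 region at 9.9 kb has folds of 30.4 to 36.6, the other regions have folds of 4.04 to 11.2, and rows with 1 symbol are regions of a single list.

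The 14 regions were shared between lists about as often as regions elsewhere. All 4 lists held 4 of the 14 (28.6%, against 22.0% of all regions), 3 were in exactly 3 lists (21.4%, against 13.3%), 1 was in exactly 2 (7.14%, against 17.9%) and 6 were in a single list (42.9%, against 46.7%). Of the 3 regions in 3 lists, those of Fbln2 and Postn were missing from siChst7 replicate 2, the shortest list (14.3% of the 14, against 7.12% of all regions), and that of Sparc from siControl replicate 2 (7.14%, against 3.61%). The regions of a single list were 199 to 591 bp wide, with folds of 4.04 to 8.08. Of these 6, 4 were in siChst7 replicate 1, the longest list (28.6% of the 14, against 29.2% of all regions), and 2 in siControl replicate 1 (14.3%, against 8.31%). Summits inside a protein-coding gene were found for 6 of 14 (against 53.6% of all regions), and 5 of 14 lay within 2.5 kb of a gene end (against 19.4%). Median width was 487 bp, against 454 bp over all regions. The 36 peaks of these regions had median folds of 6.59 to 8.71 by list.

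**Figure D4:**
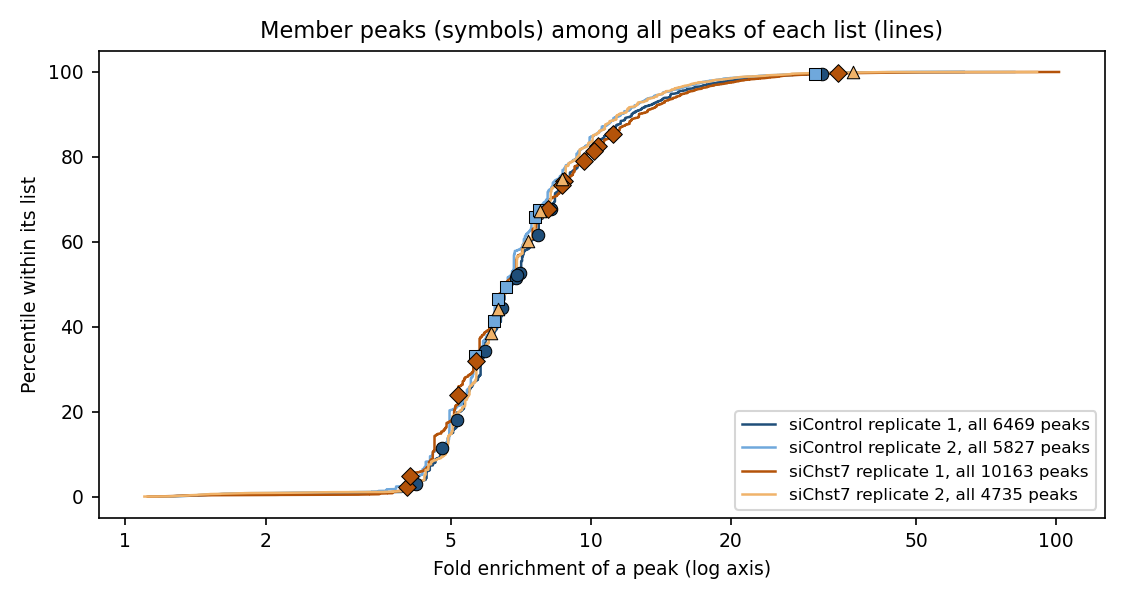
Percentile of each peak within its own list (vertical axis) against its fold enrichment (log axis), with lines for all peaks of each library and symbols for the 36 peaks of the 10 genes. The 4 symbols at the top right are the Fbln2 region at 9.9 kb, and the others spread along the lines from folds of 4.04 to 11.2.

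By presence in the lists, with peaks joined at an overlap of 1 bp, no region of these genes separated the siRNA groups. Of the 14, 0 were siControl-only, meaning held by the pair of siControl lists and absent from the siChst7 pair (against 1.60% of all regions), and 0 were siChst7-only by the mirrored rule (against 3.88%). Such regions were rare over the whole series, so 0 of 14 does not set these genes apart. Both siControl lists held 6 of the 14 regions (against 31.1%) at 4 genes, Fbn1, Fbln2, Loxl1 and Postn (against 11.0% of genes). Both siChst7 lists held 5 (against 31.7%) at 4 genes, Fbn1, Fbln2, Loxl1 and Sparc (against 11.3%). Postn and Sparc were each also in 1 list of the other group. The Sparc region inside the gene became siChst7-only with peaks of at least 5-fold, a q of at most 0.001 or equal list length. Its siControl peak had a fold of 4.22 and a −log10 q of 2.67, close to the end of that list. The region also became siChst7-only with summit windows. There the siControl peak was kept and overlapped both siChst7 peaks, but its summit was too far from theirs to be joined. In the other direction, 2 siControl-only regions appeared with 50% reciprocal overlap, that of Postn and a part of the Fbln2 region at 6.1 kb, and 1 with summit windows, that of Postn. At both places a wider peak of siChst7 replicate 1 (950 bp at Postn, 2187 bp at Fbln2) overlapped the siControl peaks. At Fbln2 a peak of siChst7 replicate 2, with a fold of 6.12, overlapped them too. The rules that gave siControl-only regions did not join these siChst7 peaks to them, so siControl-only here does not mean free of siChst7 peaks.

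The number of regions at these genes varied more between libraries of a group than between the groups. The siControl libraries had 10 and 6, a mean of 8 ± 2.83 (SD, n = 2). The siChst7 libraries had 12 and 5, a mean of 8.5 ± 4.95 (SD, n = 2). The difference of 0.5 regions was smaller than the spread within either group (two-sided exact permutation p = 1, smallest possible 0.333), and it was −3 without siChst7 replicate 1, −1.5 without siControl replicate 2, 2.5 without siControl replicate 1 and 4 without siChst7 replicate 2. As a share of each list, member peaks were 0.170% (exact Clopper-Pearson 95% interval 0.0849 to 0.304) and 0.120% (0.0483 to 0.247) in siControl. The siChst7 shares were 0.118% (0.0610 to 0.206) and 0.127% (0.0465 to 0.276). These intervals overlap and cover counting error only. The group means, 0.145% and 0.122%, gave a siChst7 minus siControl difference of −0.0227 percentage points (p = 0.667 by two-sided exact permutation, n = 2 per group), and of 0.0023 without siControl replicate 1.

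In 3 of the 4 regions shared by all lists, that of Fbn1 and the Fbln2 regions at 9.9 and 6.1 kb, both siChst7 folds were above both siControl folds. Over all 2785 shared regions that order was found in 21.9%. The opposite order was found in 0 of 4, against 12.6%. The list of siChst7 replicate 1 held the highest fold in 3 of the 4, against 54.9%. The order was narrow for Fbn1, at 7.77 in siChst7 replicate 2 against 7.73 in siControl replicate 2. At 6.1 kb from Fbln2 it depended on the peak taken. In siChst7 replicate 2 the peak nearer the gene had a fold of 8.67, against 7.70 and 6.20 in siControl. The other peak of that list had 6.12, against 6.90 and 6.32. The broad peak of siChst7 replicate 1 had 10.4. With 50% reciprocal overlap or summit windows this region was not shared by all lists. Folds were set within each list by the authors' peak caller, and whether an IgG library gave the background is not known here. The order of the groups therefore describes the lists and was not tested as a difference in binding.

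JUNB regions were also found near other genes of elastic fibres and the matricellular family. Of 32 such genes, 16 owned a region in any list (against 25.1% of all genes) and 4 a region in all lists (against 8.32%): Adamtsl2, Ccn2, Thbs1 and Thbs2. Adamtsl2, whose product binds fibrillin microfibrils, had the strongest, inside the gene and 12.2 kb from its 3 prime end (chromosome 2, 27096197 to 27097376), with folds of 21.3 and 19.3 in siControl and 24.0 and 18.1 in siChst7. The thrombospondin gene Thbs1 had a region 1.1 kb from its nearer end (chromosome 2, 118109906 to 118111722), with folds of 9.88 to 12.2. Thbs2 had 2 shared regions, 54.4 and 88.8 kb beyond its 3 prime end, with folds of 5.70 to 13.7. The matricellular gene Ccn2 had a shared region 41.1 kb away with folds of 5.15 to 7.35. The 16 genes with no region were Fbn2, Fbln5, Fbln7, Mfap2, Mfap4, Mfap5, Emilin1, Ltbp4, Loxl3, Hmcn1, Tnn, Sparcl1, Smoc1, Spock1, Tgm2 and Adamts10. Per 100 kb of nearest genome these 32 genes held 0.938 regions, against 0.649 for all genes, and 0.130 shared ones, against 0.142. Whether they differ from the 10 genes was not tested.

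Marker genes of the labelled cell type were partly covered. A region in any list was found for 6 of 9 fibroblast markers, with none for Col3a1, Dcn and Pdgfra, and for 1 of 7 cardiomyocyte, 3 of 4 endothelial, 2 of 4 macrophage and 0 of 4 smooth muscle markers, against 25.1% of all genes. The marker sets differed in the genome nearest to them, with medians of 150, 35.7, 158, 61.4 and 25.6 kb in the same order, against 46.4 kb over all genes. Per 100 kb they held 2.18, 0.173, 0.780, 0.719 and 0 regions, against 0.649. Peaks do not measure expression, so these counts do not show which cells were present.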

How the data were processed

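Peak lists of 4 JUNB CUT&RUN libraries were used, matched to samples by the peak names, which carry the siRNA, day and replicate number. Per the submitters' processing notes, the tools were Bowtie2 and MACS3 and the build mm10; versions, settings and the use of an IgG control are not given in the sources used here. The deposited lists give each peak a fold enrichment (a ratio over local background) and a p-value and q-value as −log10, and end near a −log10 q of 2. No read counts were used, so a region absent from a list may hold signal under its threshold.

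Overlaps of 1 bp or more joined peaks into regions, with 1-based coordinates. Genes came from a RefSeq table of GRCm38.p6 (the assembly of mm10), which gives no strand; 5 prime and 3 prime ends were named for genes in the RefSeq promoter table. All 10 genes matched the first table and 5 the second. No genome sequence was used, so motifs under peaks and exon or intron positions were not examined. Named genes were the 10 members with every region they own, and genes of the further list of 32 with a region in all lists; the genes of that list with no region were listed in addition after their values were seen. Members and lists were chosen with earlier results of these data known. Counts were compared over libraries by two-sided exact permutation. These p-values place the observed difference among those of all possible regroupings of these libraries. The titles call the libraries biological replicates, and the spread between them may be technical in part. Joining and the distance to the nearest gene end were tested on simulated peaks of equal width, set well apart. The name of the assigned gene, the 100 kb limit and broad peaks that bridge others were not tested there. Scripts ran in Python 3.11.15 with pandas 2.3.3, SciPy 1.17.1, NumPy 2.4.6 and, for figures, Matplotlib 3.10.9.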

Additional observations from a re-analysis of the deposited data

How the results depend on the processing

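Fbn1, Fbln2 and Loxl1 kept a region in both siControl lists under all 7 settings of overlap, threshold, list length and gene assignment, and in both siChst7 lists too, except that Fbln2 lost it in siChst7 when regions had to lie in the gene body or within 5 kb. Fbn1 and Loxl1 kept theirs. The difference in member regions per library was 0 with 50% reciprocal overlap, summit windows of 100 bp to each side, equal list length, gene ends within 20 kb and gene bodies with 5 kb. Leaving out 1 library gave −3 to 4 regions, and −0.0476 to 0.0023 points for the share of peaks. All lists shared 3 regions with 50% reciprocal overlap and with summit windows, where the Fbln2 region at 6.1 kb was not shared, and 2 with gene bodies and 5 kb; leaving out 1 library gave 4 to 6. There were 2 siControl-only regions with 50% reciprocal overlap (Postn and part of the Fbln2 region at 6.1 kb) and 1 with summit windows (Postn), and 0 to 2 with 1 library left out. Under those joining rules, wider peaks of siChst7 replicate 1 overlapped the siControl-only regions without being joined to them. At Fbln2 a peak of siChst7 replicate 2 did so too. There was 1 siChst7-only region, the Sparc region inside the gene, with summit windows, q of at most 0.001, fold of at least 5 and equal list length, and 0 to 4 with 1 library left out. With summit windows the Sparc peak of siControl replicate 1 overlapped that region without being joined to it. Members with a region in both siControl lists were 4 to 6, and in both siChst7 lists 4 to 7, with 1 library left out; these counts need 1 list where a group has lost one. The replicate numbers were not shown to pair the libraries: deviations of same-numbered libraries correlated at −0.032 for presence over 12655 regions and 0.063 for log2 fold over 2785 shared regions. With a replicate block the differences were again 0.5 regions and −0.0227 points (exact sign-flip permutation p = 1 in both, smallest possible 0.5). The cause of each shift was not tested unless named. Depth per library is unknown, so how far it limits the weaker regions could not be measured.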
